A study of Mus musculus with 21 samples.

Results

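The genes described here are 10 genes of collagen folding, processing and crosslinking, *P3h1*, *P3h2*, *P4ha1*, *P4ha2*, *Plod1*, *Plod2*, *Lox*, *Loxl2*, *Serpinh1* and *Bmp1*. They were taken as a list of symbols, with no threshold on their values, and all 10 were found among the 49652 genes of the deposited counts and passed the filter on low counts that left 19315 genes for testing. RNA sequencing covered 21 mammary tumors of mice, 9 of a control cohort and 12 of a RhoC cohort. The controls had the genotype FloxNeoNeuNT;MMTV-CreNLST, and 7 of the 9 also carried a *Gata4* loxP allele (Gata4(loxP/+)), while 2 did not. The RhoC tumors had the genotype R26(RhoC/+);FloxNeoNeuNT;MMTV-CreNLST. By these genotypes, Cre recombinase is driven by the mammary-directed MMTV promoter in both cohorts and is meant to switch on an activated form of *Neu* (NeuNT) placed at the *Erbb2* locus. In the RhoC cohort the same Cre is meant to switch on *RhoC* from the *Rosa26* locus, and only recombined cells and their descendants would carry the active alleles. Each control tumor came from its own mouse. The RhoC tumors came from 8 mice if the tumor whose label names no mouse (R-18) is counted as its own, with 4 tumors from mouse P497 (R-13 to R-16) and 2 from mouse N9255 (R-6 and R-7).

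Fibrillar collagens are modified while they are still unfolded in the endoplasmic reticulum. Prolyl 4-hydroxylases (*P4ha1* and *P4ha2* encode their catalytic subunits) stabilise the triple helix, prolyl 3-hydroxylases (*P3h1*, *P3h2*) modify a few further prolines, and lysyl hydroxylases (*Plod1*, *Plod2*) prepare the lysines that later carry crosslinks. *Serpinh1* encodes HSP47, a collagen-specific chaperone. After secretion, *Bmp1* encodes the protease that cuts off the C-propeptide of fibrillar procollagens, and the lysyl oxidases *Lox* and *Loxl2* oxidise lysines so that the fibres become crosslinked. In tumors much of the fibrillar collagen is made by fibroblasts, and several of these enzymes are known targets of hypoxia-inducible factor.

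Promoter windows, from 250 bases before to 50 bases after the annotated start of transcription, were taken from RefSeq on GRCm38.p6, and 5 of the 10 members had one (*P3h1*, *P4ha1*, *P4ha2*, *Plod1* and *Serpinh1*). The windows of *P4ha1* and *P4ha2* are shown, the members closest over all mice to the hypoxia genes described further on. Beside them stand those of *P3h1* and *Serpinh1*, which had values near 0 with the hypoxia genes over all mice, though not within the RhoC mice alone. In RhoC mice alone *Bmp1*, *P3h2* and *Plod2* had a higher Pearson r with the hypoxia genes than *P4ha2*. Capitals mark the core of the hypoxia response element, searched as ACGTG or GCGTG on both strands. Such a core stands in 43.8% of the 32851 promoter windows, at least 2 cores stand in 20.6%, at least 3 in 8.93% and at least 4 in 3.86%. The window of *P4ha1* (chr10:59323046-59323345, + strand) held 3 cores and that of *P4ha2* (chr11:54100674-54100973, + strand) held 4. The first of the 2 windows of *P3h1* (chr4:119232665-119232964, + strand) held 2, as did the other window of *P3h1* and that of *Plod1*, which are not shown, and that of *Serpinh1* (chr7:99353190-99353489, - strand) held 1. These are matches of letters and not measured binding sites. The shares given above are over windows of any GC content. That content was 70.3% for *P4ha1* and for *P4ha2*, 59.7% for the *P3h1* window shown and 62.3% for *Serpinh1*.
*P4ha1*: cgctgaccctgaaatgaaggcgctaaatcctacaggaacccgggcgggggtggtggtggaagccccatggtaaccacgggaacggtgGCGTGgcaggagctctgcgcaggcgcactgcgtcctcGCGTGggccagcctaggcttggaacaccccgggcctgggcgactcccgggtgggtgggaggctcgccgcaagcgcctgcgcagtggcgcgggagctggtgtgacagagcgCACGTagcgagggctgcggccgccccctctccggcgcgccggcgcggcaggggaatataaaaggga
*P4ha2*: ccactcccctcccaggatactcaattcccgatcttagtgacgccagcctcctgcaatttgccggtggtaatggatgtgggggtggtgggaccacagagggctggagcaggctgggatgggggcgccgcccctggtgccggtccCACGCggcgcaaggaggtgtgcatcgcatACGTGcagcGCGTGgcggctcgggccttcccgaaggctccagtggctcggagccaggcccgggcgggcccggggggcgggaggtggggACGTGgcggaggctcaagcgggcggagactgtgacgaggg
*P3h1*: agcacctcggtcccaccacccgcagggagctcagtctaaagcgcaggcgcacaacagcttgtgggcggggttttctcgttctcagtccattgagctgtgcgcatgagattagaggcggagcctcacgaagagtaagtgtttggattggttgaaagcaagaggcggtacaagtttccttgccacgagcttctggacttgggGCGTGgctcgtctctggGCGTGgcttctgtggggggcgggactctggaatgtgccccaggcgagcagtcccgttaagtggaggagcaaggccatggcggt
*Serpinh1*: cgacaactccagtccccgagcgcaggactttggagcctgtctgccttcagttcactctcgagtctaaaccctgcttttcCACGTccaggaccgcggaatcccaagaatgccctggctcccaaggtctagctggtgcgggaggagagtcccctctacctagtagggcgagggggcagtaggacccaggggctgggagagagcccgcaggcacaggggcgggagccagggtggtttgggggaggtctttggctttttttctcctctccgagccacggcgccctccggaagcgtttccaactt

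Each control tumor had 47552423 to 100741339 counted reads and each RhoC tumor 47309780 to 85326903, and no member had fewer than 179 reads in any tumor. Counts were divided by library sizes scaled with edgeR's TMM method (CPM). *Rhoc* itself ranged from 25.98 to 172 CPM in control and from 22.8 to 148 CPM in RhoC tumors and did not separate the cohorts (log2 fold change 0.19, SE 0.34, adjusted p = 0.774 with edgeR's quasi-likelihood test). The lowest value came from the library labelled R-2, 11 of the 12 RhoC tumors exceeded the control median and none exceeded the highest control, so the cohorts are named here by their labels and not by the measured level. *Erbb2*, whose locus holds the NeuNT allele, was at 57.9 CPM in the control N-15, while the other 8 controls lay between 599.7 and 2725 CPM. The RhoC tumors lay between 255.7 and 1851 CPM, and the log2 fold change of *Erbb2* was -0.73 (SE 0.46, adjusted p = 0.3705 with edgeR). The label of N-15 gives a genotype and not a level, and the cause of its low value was not tested. In the control N-17 the markers of skeletal muscle summed to 3875 CPM and those of adipocytes to 299 CPM, against medians of 1.10 and 4.25 CPM over the controls. In the RhoC tumor R-10 the muscle markers summed to 600.5 CPM, against a median of 0.82 CPM over the RhoC tumors. Luminal and fibroblast markers were present in all 21 tumors, with luminal sums from 1088 to 5680 CPM. In bulk tumors, fewer cells of a type and less RNA per cell cannot be told apart, and this holds for every level given here.

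The genes lie apart in the genome, on chromosomes 4 (*P3h1* and *Plod1*), 7 (*Serpinh1*), 9 (*Plod2*), 10 (*P4ha1*), 11 (*P4ha2*), 14 (*Loxl2* and *Bmp1*), 16 (*P3h2*) and 18 (*Lox*). Levels of different genes were compared per length, with the authors' FPKM values. *Serpinh1* was the most abundant member, at a median of 95.6 FPKM over the 21 tumors, and stood above the next gene, *Plod2* (median 34.7 FPKM), in 20 of the 21 tumors. *Plod2*, *Lox* (28.8 FPKM), *Plod1* (23.2 FPKM) and *P4ha1* (20.7 FPKM) followed, and no neighbours among these 4 differed by more than 1 SD of their difference over the 17 mice. A lower tier held *Loxl2* (14.1 FPKM), *Bmp1* (13.6 FPKM) and *P3h2* (13.3 FPKM), again without a neighbouring difference beyond the SD. *P3h1* (5.53 FPKM) and *P4ha2* (4.56 FPKM) were lowest, and their order was also within the SD. *Col1a1*, the main fibrillar collagen gene, had a median of 180 FPKM. *Lox* had the largest ratio of highest to lowest value of the members, from 1.43 to 108 FPKM, and both ends were control tumors.

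The first comparison asked whether the enzymes differ between RhoC and control tumors. None of the 10 members was called, that is, passed an adjusted p of 0.05 over all tested genes, with edgeR, against 0.223% of all genes tested (0.0932% higher and 0.129% lower in RhoC tumors). At an unadjusted p under 0.05 there were 3 members, *P3h1*, *Serpinh1* and *Bmp1*, all higher in RhoC tumors, against 20.5% of all genes in either direction and 10.5% in the higher direction. The study, which used DESeq2, reported all 3 among the genes significantly altered in its epithelial-mesenchymal signature of these same tumors. They are therefore not independent evidence of that direction. With DESeq2 here *P3h1* (adjusted p = 0.00721) and *Bmp1* (0.0376) passed, where 6.24% of all genes did, and *Serpinh1* (0.0617) did not. Over the 10 members 7 log2 fold changes were above 0 and 3 below, with a median of 0.28. Of all tested genes 49.6% were above 0, with a median of -0.005. The members were mostly positively correlated from mouse to mouse, as described further on, so their signs are not independent.

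*P3h1* was at 8.49 to 23.1 CPM in controls (median 18.01) and at 16.2 to 63.8 CPM in RhoC tumors (median 30.5). Of the 12 RhoC tumors 9 lay above the highest control, the groups overlapped in the remaining RhoC tumors R-2, R-6 and R-18, and no control reached the RhoC median. RhoC tumors exceeded controls by 0.94 on the log2 scale (SE 0.24, n = 12 and 9, adjusted p = 0.0688 with edgeR). It passed the threshold with DESeq2 (adjusted p = 0.00721; DESeq2 called 6.24% of all genes tested), when only the 7 controls with the *Gata4* loxP allele were used (0.0499, where 2.22% of all genes were called) and without the control N-15 (0.0491, where 1.77% were). It did not pass in the fits that take account of tumors sharing a mouse, 0.86 with mouse as a random effect in voom (adjusted p = 0.211) and 0.81 with counts summed per mouse (adjusted p = 0.204), nor without the 4 tumors of mouse P497 (0.72, adjusted p = 0.283).

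*Serpinh1* was at 82.3 to 325 CPM in controls (median 208) and at 168 to 426 CPM in RhoC tumors (median 317). The highest control was N-15, the other controls did not exceed 238 CPM, and 6 of the 12 RhoC tumors lay above all controls. The estimate on the log2 scale was 0.65 (SE 0.22, adjusted p = 0.129 with edgeR and 0.0617 with DESeq2). With edgeR it was 0.78 without N-15 (adjusted p = 0.0648) and 0.57 without the tumors of mouse P497 (adjusted p = 0.411). With mouse as a random effect in voom it was 0.65 (adjusted p = 0.289), and with counts summed per mouse 0.55 (adjusted p = 0.361).

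*Bmp1* was at 28.5 to 144 CPM in controls (median 57.2) and at 54.3 to 406 CPM in RhoC tumors (median 117). The groups overlapped between 54.3 and 144 CPM, 5 RhoC tumors (R-6, R-12, R-13, R-14 and R-15) exceeded every control and 11 exceeded the control median. The 4 highest, R-13 (406 CPM), R-12 (271), R-6 (249) and R-14 (213), were the 4 RhoC tumors with the highest summed basal epithelial markers, described with *P4ha2* further on, and the part of cells with such markers in the level of *Bmp1* was not tested. *Bmp1* had the largest estimate of the 10 members, 1.23 on the log2 scale (SE 0.40, adjusted p = 0.117 with edgeR and 0.0376 with DESeq2). It was 0.91 without the tumors of mouse P497 (adjusted p = 0.414), 1.05 with mouse as a random effect in voom (adjusted p = 0.313) and 0.93 with counts summed per mouse (adjusted p = 0.346).

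**Figure D1:**
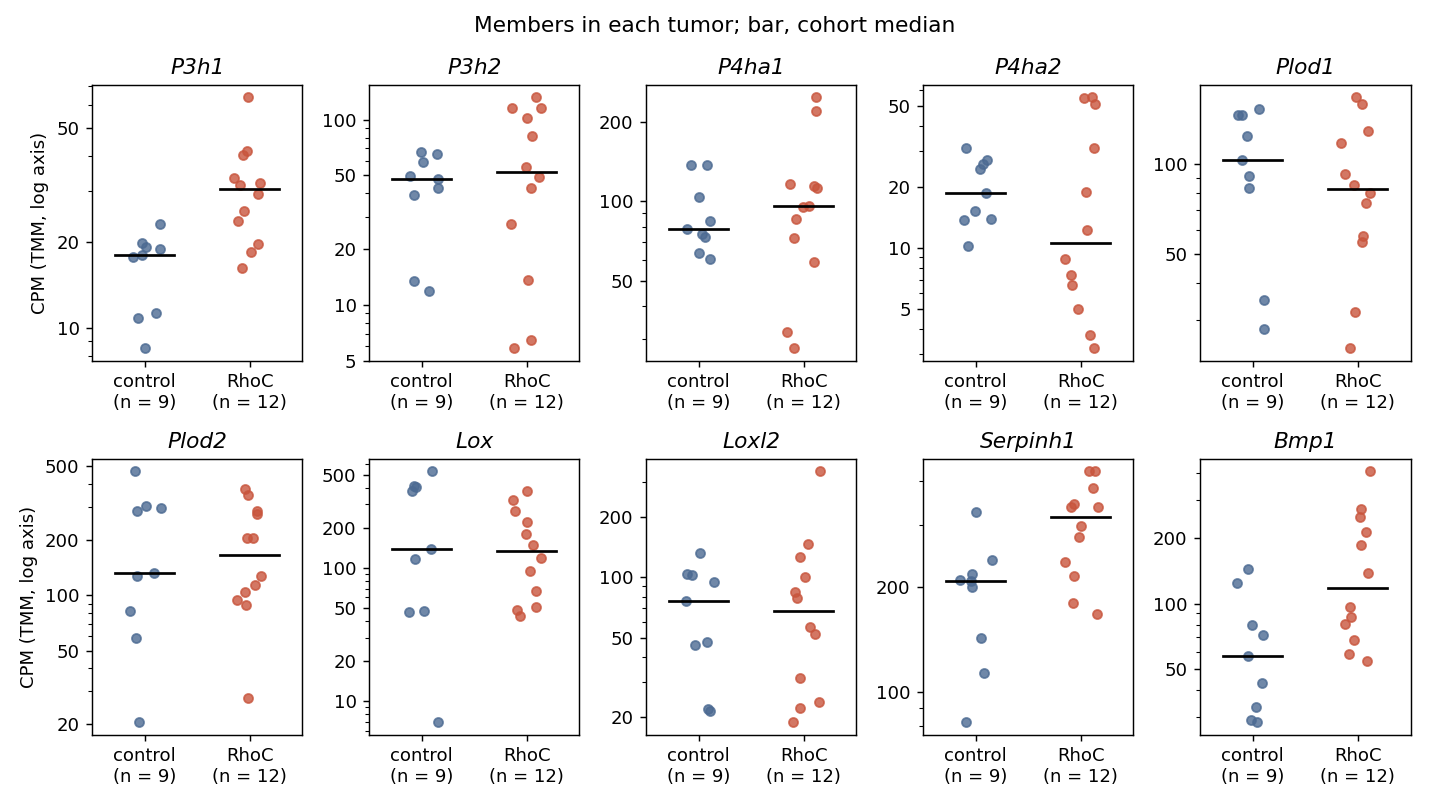
TMM-normalised CPM (log axis, with its own range in each panel) of the 10 genes in each of the 9 control and 12 RhoC tumors; each point is a tumor and the bar is the cohort median. *P3h1* lay above the highest control (23.1 CPM) in 9 RhoC tumors, while for *Plod2* and *Lox* the RhoC tumors all lie between the lowest and the highest control.

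The prolyl 4-hydroxylase subunits did not differ between the cohorts beyond the spread between tumors. *P4ha1* was at 60.2 to 137 CPM in controls (median 78.2) and at 27.7 to 247 CPM in RhoC tumors (median 95.7), with the 2 lowest values of all in R-2 and R-18. *P4ha2* was at 10.2 to 31.1 CPM in controls (median 18.7) and at 3.21 to 55.1 CPM in RhoC tumors (median 10.6). The RhoC tumors therefore lay on both sides of the controls for *P4ha2*: 4 of them (R-6, R-12, R-13 and R-14, the last by a small margin) were above every control and 6 were below the lowest control of 10.2 CPM. The log2 fold changes were 0.24 (SE 0.32, adjusted p = 0.690) for *P4ha1* and 0.10 (SE 0.49, adjusted p = 0.920) for *P4ha2* with edgeR, and neither sign held under all alternatives. Without R-12 *P4ha1* was at 0.05 and without R-13 at 0.09. With mouse as a random effect in voom, where each mouse's tumors are not treated as independent, *P4ha2* was at -0.73.

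The 4 RhoC tumors with the highest *P4ha2*, which are also the 4 with the highest *Bmp1*, were the 4 with the highest summed level of 5 basal epithelial markers (*Krt5*, *Krt14*, *Trp63*, *Acta2* and *Myh11*). That sum was 16750 CPM in R-6, 11790 in R-13, 5281 in R-14 and 4198 in R-12, and did not exceed 659 CPM in the other 8 RhoC tumors. Among the controls it ran from 80.0 to 2562 CPM. *Krt5* and *Krt14* were at log2 fold changes of 2.88 and 3.05 between the cohorts, with adjusted p of 0.385 and 0.310 from edgeR. All 5 basal markers were higher in RhoC tumors in that fit without passing the test. With 1 tumor left out *Krt5* ran from 2.28 (without R-6) to 4.87 (without N-1), and *Krt14* was negative with mouse as a random effect in voom. By the study's description of its tumors, R-6, R-13 and R-14 were squamous cell carcinomas, a type known to carry keratins of this list, and R-12 was a complex adenocarcinoma. The part of basal or squamous cells in the levels of the members was not tested.

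The prolyl 3-hydroxylase *P3h2* was at 11.95 to 66.9 CPM in controls (median 48.1) and at 5.83 to 132 CPM in RhoC tumors (median 52.2). Among the RhoC tumors it was lowest in R-2 (5.83), R-6 (6.50) and R-14 (13.7) and highest in R-7 (132). R-6 and R-7, which held values near opposite ends of the range, came from the same mouse. The cohorts differed by 0.50 on the log2 scale (SE 0.49, adjusted p = 0.581 with edgeR), and by 0.16 with mouse as a random effect in voom (adjusted p = 0.935). Of its exon bases 1055 are shared with an antisense gene, *Gm4524*, which had 403 reads in all against 74404 for *P3h2*. It is not stated whether counting used the strand. If it did not, reads on the shared bases were discarded for both genes, so these totals do not show what the overlap removed.

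The lysyl hydroxylases and lysyl oxidases also overlapped between the cohorts. *Plod1* was at 28.1 to 152 CPM in controls (median 103) and at 24.1 to 167 CPM in RhoC tumors (median 82.5). *Plod2* was at 20.5 to 470 CPM in controls (median 132) and at 27.8 to 378 CPM in RhoC tumors (median 166). Both extremes of *Plod1* were RhoC tumors (R-2 and R-15) and both extremes of *Plod2* were controls (N-1 and N-4). Log2 fold changes were -0.17 (SE 0.34, adjusted p = 0.795) for *Plod1* and -0.07 (SE 0.46, adjusted p = 0.940) for *Plod2*, from edgeR.

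*Lox* was at 6.99 to 530 CPM in controls (median 138) and at 43.6 to 374 CPM in RhoC tumors (median 133). The lowest value was that of N-9, the control with the lowest fibroblast marker sum (142 CPM), and the highest that of N-17. *Loxl2* was at 21.4 to 133 CPM in controls (median 76.2) and at 18.9 to 338 CPM in RhoC tumors (median 67.8), and R-12 held the highest value, more than the 147 CPM of the next tumor, R-13. The log2 fold changes were -0.51 (SE 0.56, adjusted p = 0.619) for *Lox* and 0.33 (SE 0.47, adjusted p = 0.719) for *Loxl2* with edgeR. Without R-12 *Loxl2* was at -0.09, so its direction rested on that tumor, and without N-17 *Lox* was at -0.26. With mouse as a random effect in voom *Lox* was at -0.06 (adjusted p = 0.981) and *Loxl2* at -0.04 (adjusted p = 0.980).

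**Figure D2:**
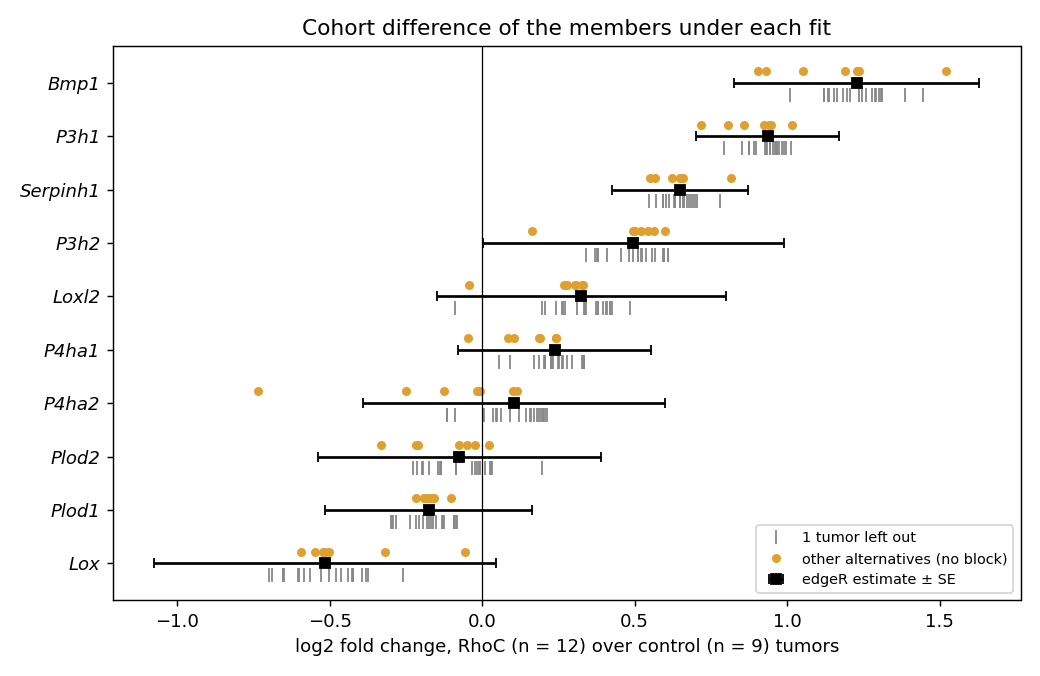
Log2 fold change of RhoC over control tumors (x axis) for each gene (y axis); black squares with bars are edgeR's estimate ± SE, grey ticks are fits that each left out 1 tumor and yellow points are the other alternatives apart from the replicate block. *Bmp1* (1.23), *P3h1* (0.94) and *Serpinh1* (0.65) stay above 0 throughout, and *P4ha2*, *P4ha1*, *Loxl2* and *Plod2* cross it.

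Other genes of the same pathway were set beside the members from written lists. Of 30 further genes of collagen folding, processing and crosslinking 29 were tested and 0 passed the threshold with edgeR. Of these 29, 18 had a log2 fold change above 0 and 11 below, where 49.6% of all tested genes were above 0, and the median was 0.37. At an unadjusted p under 0.05 there were 7 (24.1%), 5 of them higher, near the 20.5% of all genes. *Loxl3*, another lysyl oxidase, had the smallest p (log2 fold change 1.62, SE 0.52, adjusted p = 0.113, and 0.0266 with DESeq2). *Dcn*, which encodes the collagen-binding proteoglycan decorin and is also a fibroblast marker, was at -1.57 (SE 0.63, adjusted p = 0.176), while the 7 fibroblast markers had 4 log2 fold changes above 0, 3 below and a median of 0.19, with 0 called by edgeR or DESeq2 and 1 (*Dcn*) with an unadjusted p under 0.05. In the same pathway list, *Pcolce2*, an enhancer of procollagen C-proteinase, was at 2.27 (SE 0.96, adjusted p = 0.196), or 1.48 without R-13 (adjusted p = 0.365). The 15 substrate genes (fibrillar, basement membrane and beaded collagens and *Eln*) gave 0 calls with edgeR, where 3 had an unadjusted p under 0.05 (3 of 15, against 20.5% of all genes), and 2 with DESeq2 (*Col2a1* and *Col11a2*, where 6.24% of all genes were called), with 13 log2 fold changes above 0 and a median of 0.65. *Col2a1* (4.84, SE 1.79, adjusted p = 0.151), *Col11a2* (2.04, SE 0.76, adjusted p = 0.154) and *Col5a1* (0.95, SE 0.45, adjusted p = 0.235) had the smallest p, and *Col2a1* had 1 read in its lowest tumor and was at 2.86 with DESeq2, 6.72 without N-15 and 3.76 without R-2, and *Col11a2* was at 1.02 without R-21. *Col1a1* was at 0.97 (SE 0.48, adjusted p = 0.254), *Col1a2* at 0.61 (SE 0.43, adjusted p = 0.429) and *Col3a1* at -0.12 (SE 0.50, adjusted p = 0.913). Without R-13 *Col1a1* was at 0.63 and *Col1a2* at 0.40. None of the 20 hypoxia genes was called with edgeR, where 5 (25.0%) had an unadjusted p under 0.05 against 20.5% of all genes, or with DESeq2. Those with the smallest p were lower in RhoC tumors, *Pdk1* at -0.82 (SE 0.28, adjusted p = 0.129), *Ndrg1* at -1.13 (SE 0.43, adjusted p = 0.160) and *Pfkfb3* at -0.54 (SE 0.23, adjusted p = 0.196). Without N-3 *Pdk1* was at -0.53.

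The second comparison set each member against *Col1a1* in the same tumor, as the difference of their log2 CPM, to ask whether the enzymes kept pace with their main substrate. Values were averaged over the tumors of each mouse and compared between 9 control and 8 RhoC mice with an exact two-sided permutation test over 24310 labelings, adjusted over all 19314 other genes. In reads, and so for comparing tumors rather than genes, the median tumor had 1.69 *P3h1* reads per 100 *Col1a1* reads in controls (0.976 to 12.2) and 2.14 in RhoC tumors (0.793 to 7.45). For *P4ha2* the median was 2.43 in controls (0.773 to 15.1) and 0.840 in RhoC tumors (0.396 to 3.09). For *Lox* it was 19.0 in controls (7.60 to 36.2) and 11.5 in RhoC tumors (2.995 to 16.3), with overlap between the cohorts for all 3 genes.

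No gene passed the adjusted threshold (0% of all genes), and 9.42% of all genes had an unadjusted p under 0.05. The divisor moves every ratio alike, and the median over all genes was -0.82 on the log2 scale. A member's distance from the median gene therefore leaves *Col1a1* out and in effect restates the plain difference between the cohorts over mice. Only the ratio itself bears on keeping pace with *Col1a1*. *P4ha2* was at -1.68 (SD 1.47 in control and 0.72 in RhoC mice, exact permutation p = 0.00819, adjusted p = 0.452), further down than the median gene. *Lox* at -0.94 (exact permutation p = 0.0185), *Loxl2* at -0.96 (0.0315), *P4ha1* at -0.95 (0.111), *Plod1* at -1.01 (0.168) and *Plod2* at -0.91 (0.168) were close to the median gene. *P3h2* was at -0.62 (exact permutation p = 0.392). The ratios of *Serpinh1* (-0.22, exact permutation p = 0.732), *P3h1* (-0.01, p = 0.987) and *Bmp1* (0.12, p = 0.795) lay above the median gene. All these p-values test a difference of 0 between the cohorts, and the distance from the median gene was not tested. Without the control N-9, whose *Col1a1* was the lowest of all tumors at 91.9 CPM, these 3 were at 0.17, 0.30 and 0.36, and the median over all genes was -0.46. *Plod1* was then at -0.54, *P4ha1* at -0.60, *Plod2* at -0.64, *Loxl2* at -0.79 and *P3h2* at -0.25. *P4ha2* (-1.37, exact permutation p = 0.0134) and *Lox* (-1.10, exact permutation p = 0.00528) were the furthest below that median without N-9, so the place of *Lox* beside the median gene depended on that tumor.

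The third comparison asked how far each member followed *Col1a1* from mouse to mouse, over 17 mice and adjusted over all genes. *Lox* followed it most closely, with Pearson r = 0.87 (permutation p = 3e-05, adjusted p = 0.00920) and Spearman rho = 0.80 (permutation p = 0.00014, adjusted p = 0.0334, where 0.689% of all genes were called), and was the 1 member of 10 called, where 1.41% of all genes were called and the median r was -0.01. The relation of *Lox* held within the cohorts, at r = 0.95 in 9 control mice (exact permutation p = 8.27e-06) and 0.91 in 8 RhoC mice (exact permutation p = 0.002505). Without the 2 mice farthest from the median of *Col1a1*, those of the controls N-9 and N-1, it was 0.74 (permutation p = 0.00226, adjusted p = 0.181), where 0.124% of all genes were called. *Lox* also had r = 0.96 with the mean log2 CPM of 7 fibroblast markers (adjusted p = 0.00297, where 3.09% of all genes were called; this measure was added after seeing the data), and 0.94 without the 2 mice farthest from the median of the index (adjusted p = 0.0149, where 0.715% were called). *Loxl2* had r = 0.65 with these markers (adjusted p = 0.0867), and passed with Spearman rho (0.78, adjusted p = 0.0317, where 2.28% were called) and with each tumor as a sample (0.65, adjusted p = 0.0425, where 2.94% were called). It did not pass without the 2 farthest mice (0.62, adjusted p = 0.186), in control mice alone (0.68, exact permutation, adjusted p = 0.385) or in RhoC mice alone (0.81, exact permutation, adjusted p = 0.151). The part of the number of fibroblasts in these relations was not tested.

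*Loxl2* had r = 0.70 with *Col1a1* (permutation p = 0.00136, adjusted p = 0.0712; rho = 0.73, permutation p = 0.00151), *Bmp1* 0.66 (permutation p = 0.00289, adjusted p = 0.105; rho = 0.56, permutation p = 0.0202) and *P3h1* 0.66 (permutation p = 0.00359, adjusted p = 0.113; rho = 0.61, permutation p = 0.0116). With each tumor as a sample these 3 passed the threshold as well, where 3.8% of all genes did. Without the 2 farthest mice *Loxl2* kept 0.67, while *Bmp1* was at 0.49 (permutation p = 0.0632) and *P3h1* at 0.41 (permutation p = 0.126), so that the relations of *Bmp1* and *P3h1* rested in part on those mice. Within cohorts *Loxl2* was at 0.75 in control and 0.93 in RhoC mice, *Bmp1* at 0.50 and 0.81, and *P3h1* at 0.77 and 0.37. The other 6 members had lower values, *Plod2* 0.43 (rho = 0.49), *Serpinh1* 0.42 (rho = 0.43), *P4ha1* 0.33 (rho = 0.42), *P3h2* 0.26 (rho = 0.16), *P4ha2* 0.25 (rho = 0.29) and *Plod1* 0.04 (rho = -0.01), with permutation p from 0.0465 to 0.981 and adjusted p from 0.332 upward. *P4ha2* was at 0.05 in control and 0.89 in RhoC mice, a difference that was not tested. With *Col3a1* in place of *Col1a1*, *Lox* was at 0.96 and *Loxl2* at 0.65, while *Bmp1* was at 0.36 (permutation p = 0.154), *P3h1* at 0.45 (permutation p = 0.0694) and *Serpinh1* at 0.14.

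**Figure D3:**
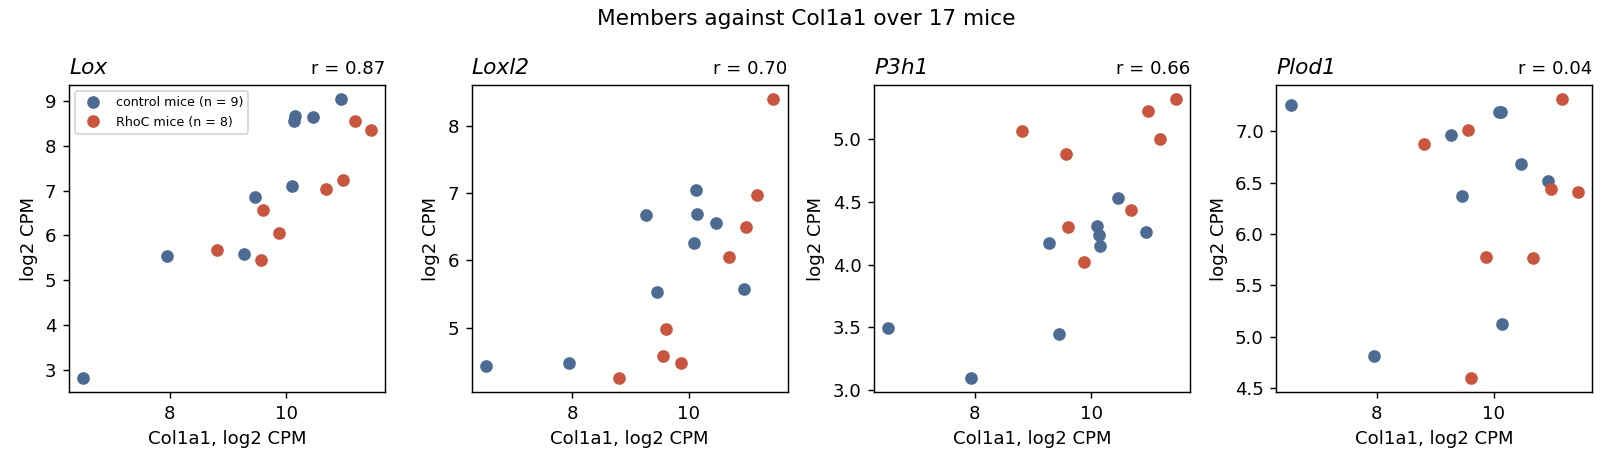
Log2 CPM of *Lox*, *Loxl2*, *P3h1* and *Plod1* (y axis) against that of *Col1a1* (x axis), each point the mean over the tumors of 1 of 9 control or 8 RhoC mice. *Lox* rises with *Col1a1* in both cohorts (r = 0.87), whereas *Plod1* has no slope (r = 0.04).

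Among themselves the members were mostly positively correlated, in 42 of 45 pairs over the 17 mice, with a median r of 0.43. Over all pairs of the 11680 genes with a mean log2 CPM of at least 2, 50.5% were positive, with a median of 0.004. This is a description over mice that share libraries and scaling. Over all mice *P3h1*, *Serpinh1* and *Bmp1* had the highest values, with r = 0.80 (*P3h1* and *Serpinh1*), 0.78 (*P3h1* and *Bmp1*) and 0.81 (*Serpinh1* and *Bmp1*), and between 0.61 and 0.79 within each cohort. These are the 3 members with the largest cohort difference in units of its SE, so their pooled values include that difference. Within cohorts other pairs were higher, *Plod1* and *Serpinh1* (0.92), *P3h1* and *P3h2* (0.87) and *Plod2* and *Loxl2* (0.87) in control mice, and *P4ha1* and *Bmp1* (0.96) and *P4ha2* and *Bmp1* (0.93) in RhoC mice. *P4ha1* went with *P4ha2* (0.76) and *Loxl2* (0.73), and *Loxl2* with *Lox* (0.70). In control mice alone *P4ha2* and *Loxl2* had r = 0.04, against 0.92 in RhoC mice. *Plod1* and *Serpinh1* were at 0.66, and *P4ha2* was at -0.06 with *P3h1* (-0.11 in control and 0.54 in RhoC mice) and at -0.01 with *Serpinh1* (-0.08 and 0.54).

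**Figure D4:**
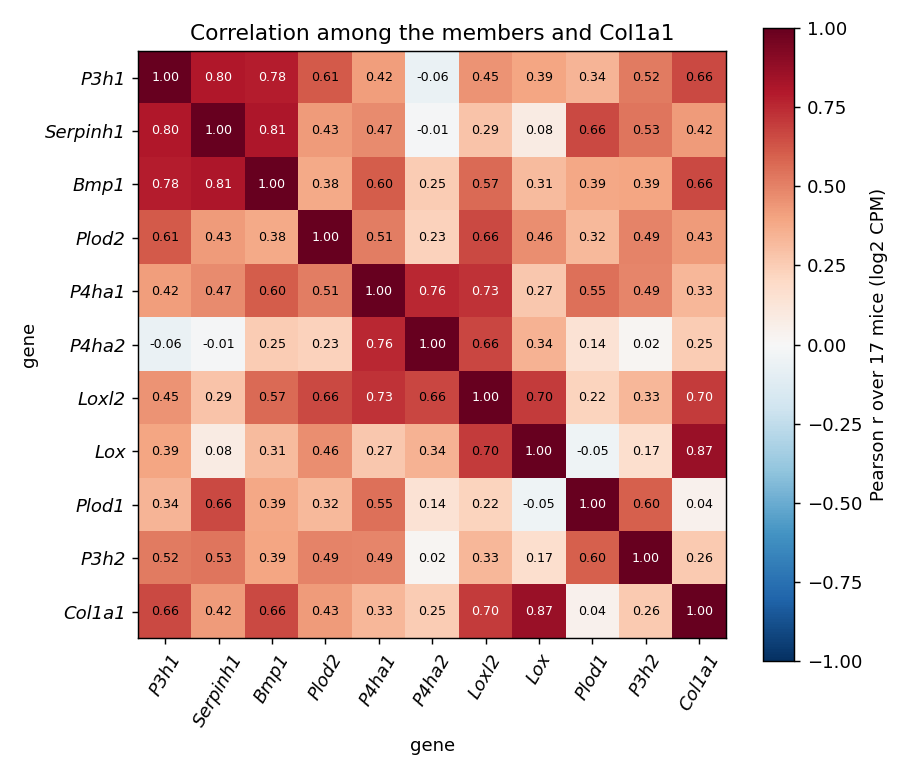
Pearson r over 17 mice between the log2 CPM of the 10 genes and *Col1a1* (rows and columns), with the value printed in each cell and the colour scale from -1 to 1. The block at the upper left holds *P3h1*, *Serpinh1* and *Bmp1* (0.78 to 0.81), and *Lox* is the gene closest to *Col1a1* (0.87).

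For each member the 3 genes with the highest Pearson r over the 21 tumors were sought among 11680 genes with a mean log2 CPM of at least 2. *Lox* was closest to *Col3a1* (0.94), *Fstl1* (0.93) and *Mmp2* (0.92), a collagen, a secreted glycoprotein and a matrix metalloprotease. *Loxl2* was closest to *Fn1* (0.91), which encodes fibronectin, *Cep170* (0.89) and *Tpm3* (0.88). *Bmp1* was closest to *Ckap4* (0.90), *Tgfb1* (0.90), the gene of the cytokine TGF-beta 1, and *Lamb1* (0.89), a laminin chain. *Plod2* was closest to *Fkbp14* (0.86), a prolyl isomerase of collagen folding, *Lims1* (0.83) and *Vdac2* (0.82), and *P4ha1* to *Pdlim7* (0.87), *Plk2* (0.84) and *Egln1* (0.81), an oxygen sensor of the hypoxia list. *Serpinh1* was closest to *Maged1* (0.86), *Prkcsh* (0.84) and *Chpf* (0.83), and *P3h1* to *Heatr5a* (0.87), *Stard3nl* (0.87) and *Dok1* (0.86). *Plod1* was closest to *Trib3* (0.82), *Ppt2* (0.80) and *Pcbp4* (0.78), *P3h2* to *Abcg2* (0.85), *Igf2r* (0.83) and *Tanc2* (0.81), and *P4ha2* to *Gja1* (0.88), *Nrip1* (0.87) and *S100a14* (0.87). No gene stood among the 3 closest of more than 1 member.

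The members were also set against a hypoxia index, the mean log2 CPM of the 20 hypoxia genes, none of which is a member. No gene passed the adjusted threshold with it over mice (0% of all genes), and with each tumor as a sample 0.0415% of all genes and 0 members did. *P4ha1* and *P4ha2* had the highest values of the members, with r = 0.73 (permutation p = 0.00079, adjusted p = 0.460; rho = 0.62, permutation p = 0.00841) and 0.72 (permutation p = 0.00109, adjusted p = 0.469; rho = 0.75, permutation p = 0.0007), higher than 99.9% and 99.8% of all genes. Within cohorts *P4ha1* was at 0.69 in control mice (exact permutation p = 0.0417) and 0.79 in RhoC mice (exact permutation p = 0.0186). *P4ha2* was at 0.67 (exact permutation p = 0.0535) and 0.68 (exact permutation p = 0.0621). Without the 2 mice farthest from the median of the index, those of R-2 and R-12, *P4ha2* was at 0.59 (permutation p = 0.0192) and *P4ha1* at 0.47 (permutation p = 0.0782), so that the value of *P4ha1* rested in part on those mice. In summed CPM of the hypoxia genes the highest RhoC tumors were R-13 (9083), R-12 (7283) and R-6 (6572), which also had high basal marker sums. R-14, the other RhoC tumor with a high basal sum, was at 4896 CPM, near the RhoC median of 4893. The part of basal or squamous cells in these correlations was not tested. The cores shown in capitals in the promoters of *P4ha1* and *P4ha2* bear on the sequence alone.

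*P3h2* (0.49), *Loxl2* (0.42), *Plod1* (0.42) and *Plod2* (0.39) had intermediate values with the hypoxia index, with permutation p from 0.0487 to 0.122. *Bmp1* (0.18), *Serpinh1* (0.12), *Lox* (0.05) and *P3h1* (0.03) had values near 0 over all mice. *Lox* was at -0.21 in control and 0.36 in RhoC mice, *Bmp1* was at 0.07 in control and 0.79 in RhoC mice, *P3h1* at 0.07 and 0.67, *Serpinh1* at 0.19 and 0.68, *Plod2* at 0.11 and 0.71, *P3h2* at 0.25 and 0.71 and *Loxl2* at 0.05 and 0.60, differences that were not tested. *Lox* was at 0.87 with *Col1a1* and 0.05 with the hypoxia index, and *P4ha1* at 0.33 and 0.73, and the difference was not tested.

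**Figure D5:**
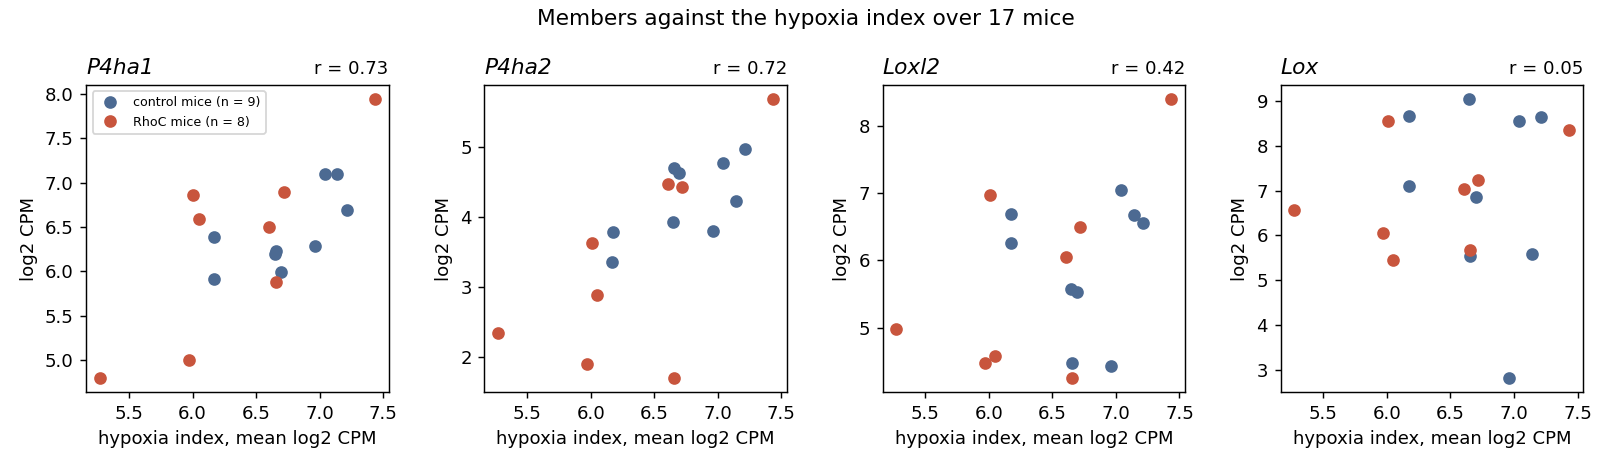
Log2 CPM of *P4ha1*, *P4ha2*, *Loxl2* and *Lox* (y axis) against the hypoxia index, the mean log2 CPM of 20 hypoxia genes (x axis), each point 1 of 9 control or 8 RhoC mice. *P4ha1* (r = 0.73) and *P4ha2* (r = 0.72) rise with the index, and the points at its far ends are the RhoC mice of R-2 and R-12, while *Lox* (r = 0.05) does not.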

How the data were processed

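RNA of 21 mammary tumors was sequenced after ribosomal RNA depletion. Per the labels and the study's methods, the authors checked and trimmed reads with FastQC 0.11.5 and Trim Galore 0.5.0, aligned them with STAR 2.6.0c to GRCm38.p6 and counted uniquely mapping reads per gene with HTSeq 0.6.1p2, discarding reads on several genes. The strand setting and the annotation release are not given in the sources used here. The deposited counts are raw whole numbers, and 0 rows named no gene. The authors' deposited FPKM values, scaled by gene length, were used for levels between genes alone. Columns with the authors' own comparisons of the cohorts (fold changes and p-values) were not used. Symbols came from the deposited table (23203 genes) or a reference table (26177), and 272 genes had none. Promoters and overlapping genes were taken from RefSeq and GENCODE annotation of GRCm38.

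Cohorts were compared with edgeR 4.0.16 in R 4.3.3 (TMM, filterByExpr, glmQLFit and glmQLFTest, no covariates), with Benjamini-Hochberg adjustment over 19315 tested genes and a threshold of 0.05. The SE is the size of the log2 fold change divided by the square root of F. Tumors of 1 mouse are not independent (correlation 0.27 in limma 3.58.1), so ratios to *Col1a1* and correlations used mouse means of log2 CPM with a prior count of 2. Correlations used 100000 permutations (seed 20240501), or all orders for fewer than 10 mice, and a p of 1e-05 is the smallest they can give. The p-values of edgeR measure the spread between separate tumors, some of 1 mouse. FPKM neighbours were compared on log2(FPKM + 0.1). Alternatives were DESeq2 1.42.0 on the same genes, library size alone, all genes with at least 1 count, counts summed per mouse, voom with mouse as a random effect, the 7 *Gata4* loxP controls alone, leaving out mouse P497, each tumor or mouse, and other references and samples for the ratios and correlations. The fibroblast index and the fit of the 8 block tumors without the block were chosen after seeing the data. The steps were tested on simulated data whose tumors were drawn independently, so this does not cover tumors that share a mouse. The members and lists were chosen with earlier results of these data known. Named are the members, *Col1a1*, *Col1a2*, *Col3a1*, *Rhoc*, *Erbb2*, the 3 genes of each pathway list with the smallest p, and for each member the 3 genes most like it; *Krt5* and *Krt14* are basal markers, and other names come from the marker and overlap checks.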

Additional observations from a re-analysis of the deposited data

Results flagged for a closer look

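Of 42 groups of 4 to 10 values (the members' CPM and their log2 ratio to *Col1a1*, in 9 control tumors and 8 RhoC mice, and the CPM of *Col1a1*), 5 held a value whose gap to its neighbour was large for the range of the group by Dixon's criterion, which chance gives in about 1 of 20 groups. Of these, 3 were in the control N-9. Its log2 ratio to *Col1a1* was 0.73 for *Plod1* (next highest control -2.31), 1.12 for *Serpinh1* (next -1.51) and -3.03 for *P3h1* (next -4.86), and its *Col1a1* was the lowest of all tumors at 91.9 CPM. The other 2 values were in the RhoC mouse of tumor R-12, with 247 CPM of *P4ha1* (next RhoC mouse 128) and 338 CPM of *Loxl2* (next 126).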

How the results depend on the processing

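None of the 10 members was called under edgeR with library size alone, with all genes with at least 1 count, with counts summed per mouse, with voom, or without mouse P497. With DESeq2 2 were called (*P3h1* and *Bmp1*) and with only the *Gata4* loxP controls 1 (*P3h1*). Leaving out each tumor gave 0 to 1 calls, the 1 call being *P3h1* without N-15. DESeq2 called 1 of the other collagen biosynthesis genes (*Loxl3*) and 2 of the substrate genes. Over all genes DESeq2 called 1206 and edgeR 43, with 438 for the *Gata4* loxP controls alone, 27 with library size alone, 3 with counts summed per mouse, 3 with voom, 3 without P497 and 14 (without N-9) to 346 (without N-15) with 1 tumor left out; the cause was not tested. For *Col1a1*, 4 members were called with each tumor as a sample, 0 without the 2 farthest mice, 1 (*Lox*) in control mice alone, where 10 of 19314 genes were, and 0 in RhoC mice alone, where 0 genes were, so that the last count says nothing of the members. For the fibroblast index, 2 (*Lox* and *Loxl2*) were called with Spearman rho, 2 with each tumor as a sample, 1 (*Lox*) in control mice alone, where 65 of 19308 genes were, and 0 in RhoC mice alone, where 58 genes were.

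The numbers 1, 6, 7 and 15 stand in both cohorts, but belong to different mice, and same-numbered tumors did not deviate together (correlations of -0.237, -0.185, -0.00294 and 0.0217). With the replicate block over these 8 tumors 0 members and 0 genes were called, as without the block on the same tumors. Values with the other sign under the block were -0.79 for *P4ha2*, 0.15 for *Plod1*, 1.30 for *Plod2*, 0.77 for *Erbb2*, -2.93 for *Krt5* and -3.31 for *Krt14*. On these 8 tumors without the block they were -0.20 for *P4ha2*, 0.15 for *Plod1*, 0.72 for *Plod2* and -2.49 for *Col2a1*.

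Other reversals all concerned values that had not passed the threshold. Between the cohorts, voom gave -0.0455 for *P4ha1*, -0.73 for *P4ha2*, 0.0226 for *Plod2*, -0.0422 for *Loxl2*, 0.20 for *Col3a1* and -0.78 for *Krt14*. *P4ha2* was at -0.0153 with library size alone, -0.25 with counts summed per mouse, -0.006 with the *Gata4* loxP controls (*Col3a1* 0.20) and -0.12 without P497. With 1 tumor left out *P4ha2* ran from -0.11 to 0.21, *Plod2* from -0.23 to 0.19, *Loxl2* from -0.0899 to 0.49 and *Col3a1* from -0.41 to 0.22. For ratios, *P3h1* was at 0.14 against *Col1a2* and 0.60 against *Col3a1*, and *Serpinh1* at 0.40 against *Col3a1*. With 1 mouse left out the ratio of *P3h1* ran from -0.26 to 0.30, *Serpinh1* from -0.44 to 0.17 and *Bmp1* from -0.093 to 0.36. The correlation of *Plod1* with *Col1a1* was -0.0074 as Spearman rho. With the hypoxia index and without the 2 farthest mice, *P3h1* was at -0.21, *P3h2* at -0.0256, *Lox* at -0.0888, *Serpinh1* at -0.11 and *Bmp1* at -0.11, and *Lox* was at -0.21 in control mice alone. With the fibroblast index, *P3h2* was at -0.0323 and *Plod1* at 0.22 in RhoC mice, *P4ha1* at -0.0096 in control mice, and *Serpinh1* at -0.0371 and *Bmp1* at -0.0119 without the 2 farthest mice.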
